A study of Mus musculus with 4 samples.

Results

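Transforming growth factor beta (TGF-beta) genes were compared between Hox13dKO and wild-type autopods, the tip of the mouse limb bud from which hand or foot form. The family was taken as 10 genes: the ligands Tgfb1, Tgfb2 and Tgfb3, the latent TGF-beta binding proteins Ltbp1, Ltbp2, Ltbp3 and Ltbp4, and the receptors Tgfbr1, Tgfbr2 and Tgfbr3. All probe sets that the platform annotation assigned to exactly 1 of these genes were used, 24 of the 45101 on the array. Each of the 10 genes had at least 1 probe set. Of the 24, 18 were bright enough to be tested, and they stand for 9 genes, since the single Ltbp2 probe set was too dim. The family was selected on the log2 difference of Ltbp1, which had been among the lowest of this same comparison, so the members' differences, and the count of members past the threshold of the fit over all probe sets, are given as descriptions, with no p-value.

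The 2 Hox13dKO samples carried 2 null Hoxa13 alleles (Hoxa13-/-) together with a homozygous deletion that removes Hoxd11, Hoxd12 and Hoxd13 (HoxDdel/del). The 2 other samples were wild type. All 4 were C57BL/6 embryos at about E11.25 (embryonic day), and each sample held the part of fore- and hindlimb buds that corresponds to the region where Hoxd13 is expressed, so a value averages over limbs and over all cell types of the piece. The titles call the samples biological replicates. The labels used here do not state how many embryos were pooled per sample.

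TGF-beta ligands are secreted in a latent form, in which the ligand stays bound to its own propeptide. A latent TGF-beta binding protein is usually linked to that propeptide, and the whole complex is stored on fibrillin and fibronectin fibres until integrins, proteases or other factors release the ligand. Free ligand binds TGFBR2, which phosphorylates TGFBR1, and TGFBR1 then activates SMAD2 and SMAD3, which act with SMAD4 on target genes. TGFBR3, or betaglycan, is a co-receptor that presents ligand, above all TGF-beta 2, to TGFBR2. In the limb bud the pathway is known for its part in condensation of cartilage, in joints and in the tendon lineage.

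The RefSeq promoter table (GRCm38.p6) held windows for 8 of the 10 genes, 12 windows in all. Ltbp1 has 2 starts in it, which are known to give a long and a short form of the protein, 173252 bases apart on chromosome 17. The 250 bases before each Ltbp1 start are shown because Ltbp1 had the lowest difference of the family, and those of Tgfb2 because it is the ligand with the highest. The first Ltbp1 window is chr17:75005279-75005528 (plus strand), the second chr17:75178531-75178780 (plus strand), and the Tgfb2 window is chr1:186705990-186706239 (minus strand, written in the direction of the gene). Capitals mark CAGAC on either strand, where it reads GTCTG, the core that SMAD3 and SMAD4 can bind.

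Ltbp1 first start: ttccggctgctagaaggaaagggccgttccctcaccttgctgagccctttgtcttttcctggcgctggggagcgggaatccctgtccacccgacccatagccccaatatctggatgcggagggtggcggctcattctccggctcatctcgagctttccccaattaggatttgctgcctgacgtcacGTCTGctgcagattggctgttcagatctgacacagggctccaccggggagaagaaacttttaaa
Ltbp1 second start: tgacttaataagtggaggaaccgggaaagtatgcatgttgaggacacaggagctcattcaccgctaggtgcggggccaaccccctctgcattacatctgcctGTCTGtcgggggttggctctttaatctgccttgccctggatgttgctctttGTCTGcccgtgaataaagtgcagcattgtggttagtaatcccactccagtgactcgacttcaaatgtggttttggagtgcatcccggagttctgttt
Tgfb2 start: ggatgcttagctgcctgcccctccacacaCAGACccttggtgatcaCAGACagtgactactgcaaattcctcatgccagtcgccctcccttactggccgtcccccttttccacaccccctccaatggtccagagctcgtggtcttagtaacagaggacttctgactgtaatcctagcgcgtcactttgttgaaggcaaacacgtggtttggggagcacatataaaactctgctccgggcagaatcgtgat

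CAGAC occurred 1 time before the first Ltbp1 start and 2 times each before the second Ltbp1 start and before Tgfb2. It was present in 7 of the 12 windows of the family and in 42.2% of all 32851 windows of this length. TTTATTG, the core of the sequence that HOX13 proteins prefer, was searched on both strands as well, where it reads CAATAAA. It occurred in 0 of the 12 windows and in 4.2% of all windows. The 12 windows are not all separate, since Ltbp4 windows starting at 27333649 and 27333664 on chromosome 7 overlap. The first Ltbp1 window was 56.8% G and C with 12 CpG pairs, and the second 50.8% with 7, against medians of 52.4% and 6 over all windows. These matches describe the letters of the windows. No binding was measured, and which of the 2 starts the Ltbp1 probes report on was not analysed here.

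The deposited signals shared a 2% trimmed mean of 500.003 units on all 4 arrays. The ratio of 5' to 3' actin signal was 0.728 and 0.771 for Hox13dKO arrays, against 0.473 and 0.764 for wild-type arrays, so the lowest ratio was that of wild type replicate 1. All 4 targeted genes were lower in Hox13dKO, and to different degrees. Hoxd13 read 5.79 and 9.58 in Hox13dKO against 14540 and 16117 in wild type by its brighter probe set, at least 1085-fold lower. Hoxd12 was at least 74.5-fold lower, 1 of its Hox13dKO arrays being under the floor, and Hoxa13 was 20.1-fold lower. Hoxd11 was 4.50-fold lower and kept a signal far above the floor, at 348 and 454 in Hox13dKO against 1831 and 1745 in wild type, although the deletion removes this gene. The source of this signal was not tested, and where the probes lie relative to the deleted part was not analysed here. Markers of limb mesenchyme summed to 30296 and 24691 units in Hox13dKO, against 29012 and 26973 in wild type over 7 genes, among them the homeobox gene Prrx1 (0.48 ± 0.16) and the transcription factor gene Tfap2b (-1.50 ± 0.19; log2 difference ± SE). Of the 7, Prrx1 alone had a positive difference, and the median was -0.21. Tfap2b passed the test, lower in Hox13dKO, beside 0.145% of all genes, and 0 of the 7 passed it as higher.

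Markers of other cells were summed as well. Muscle markers (8 genes) read 1651 and 3714 units in Hox13dKO, against 494 and 522 in wild type. Past the threshold was 1 of 8, the actin gene Actc1 (3.76 ± 0.41), followed by the myogenic factor gene Myog (3.54 ± 0.67). Actc1 alone read 880 and 2252 in Hox13dKO, against 116 and 92.7 in wild type. Of the 8, 7 had positive differences, and the median was 1.36. The exception, named after its values were seen, was Pax3 (-1.16 ± 0.88), whose groups overlapped. Endothelial markers read 3215 and 4067 in Hox13dKO, against 2759 and 3035 in wild type. Erythroid markers read 91372 and 106280 in Hox13dKO, against 75296 and 98086 in wild type, macrophage markers 1061 and 1091 against 938 and 1046, ectoderm markers 7816 and 10251 against 8096 and 7418, and nerve and Schwann cell markers 151 and 346 against 375 and 411. Markers of the proximal limb (6 genes) read 23988 and 23400 in Hox13dKO, against 8068 and 6240 in wild type. Of the 6, 3 were higher past the threshold, Hoxa11 (1.86 ± 0.13), Hoxd9 (2.33 ± 0.18) and Shox2 (1.71 ± 0.23). Over all genes 0.161% were higher past the threshold. Hoxa11 and Hoxd9 lie in the same Hox clusters as the targeted genes, and the part of the mutations themselves in their values was not tested. In these lists 0 markers lay at the floor on all 4 arrays. Their part in the differences of the TGF-beta genes was not tested. In bulk tissue, fewer cells of a type and less RNA per cell cannot be told apart.

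**Figure D1:**
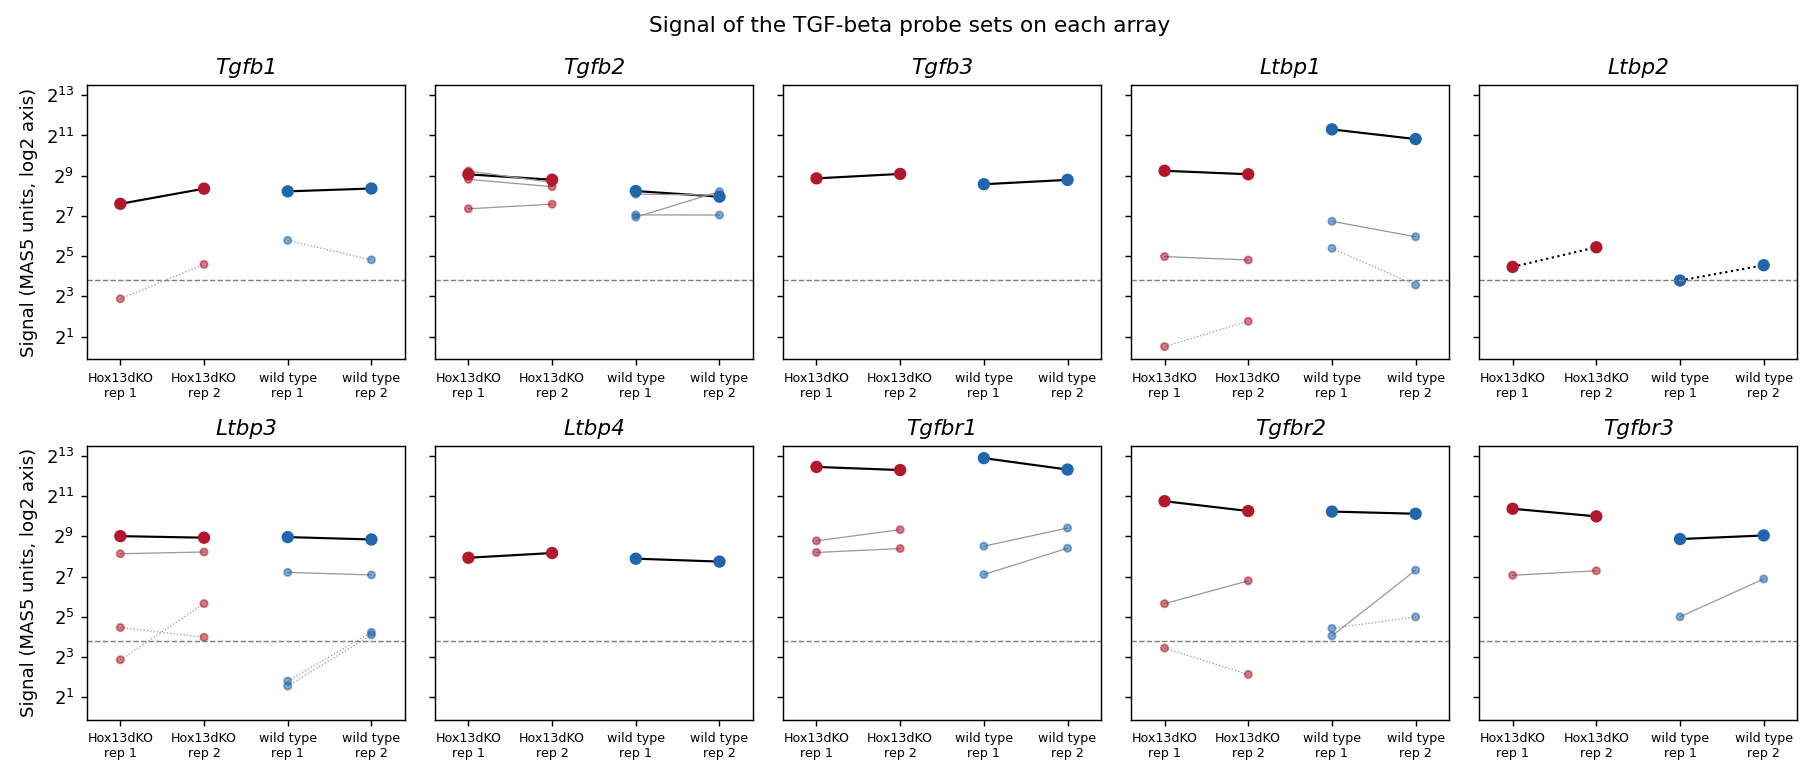
Signal in MAS5 units on a log2 axis, for every probe set of the 10 genes on each of the 4 arrays (red Hox13dKO, blue wild type). Large points and black lines are the brightest probe set of a gene, small points and grey lines the others, dotted lines probe sets too dim to be tested, and the dashed line is the floor of 14.1 units; Ltbp1 stands at 607 and 538 in Hox13dKO against 2523 and 1810 in wild type.

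In the Hox13dKO autopod Ltbp1, which tethers latent TGF-beta to the matrix, was 3.74-fold lower than in wild type, while Ltbp3 and Ltbp4, by their brightest probe sets, were not lower. The co-receptor gene Tgfbr3 and the ligand gene Tgfb2 read higher on both Hox13dKO arrays than on both wild-type arrays, by 2.34-fold and 1.79-fold. The signalling receptor genes Tgfbr1 and Tgfbr2 and the ligand genes Tgfb1 and Tgfb3 differed by at most 1.25-fold in either direction by their brightest probe set. For each gene the brightest probe set is described first, and the log2 difference is Hox13dKO minus wild type on signals raised to a floor of 14.1 units, with the standard error of the limma fit over all probe sets.

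Ltbp1 read 607 and 538 units on the Hox13dKO arrays, against 2523 and 1810.0 on the wild-type arrays. Hox13dKO averaged 572 ± 48.3 units, against 2167 ± 504 for wild type (SD over 2 arrays per group). The groups did not overlap, and the closest pairing of 1 array per group still differed by -1.58 on the log2 scale. The fitted difference was -1.90 ± 0.20 (SE), which placed Ltbp1 at rank 53 from the lowest among 13071 genes. A second Ltbp1 probe set was dimmer and went the same way, with 31.5 and 28.0 units in Hox13dKO against 106 and 62.4 in wild type, a difference of -1.45 ± 0.64. The third was too dim to be tested and read 1.42 and 3.39 in Hox13dKO against 41.9 and 11.8 in wild type. Thus all 3 Ltbp1 probe sets had their Hox13dKO arrays below their wild-type arrays, although on the third both Hox13dKO arrays and 1 wild-type array were under the floor.

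The paralogues did not share this pattern. Ltbp2, a matrix protein that does not bind latent TGF-beta, had 22.1 and 43.5 units in Hox13dKO, against 13.8 and 23.4 in wild type. These are dim signals near the floor that overlapped between groups, and Ltbp2 was not tested. Ltbp3, which binds all 3 ligands in latent form, read 518 and 490.4 in Hox13dKO against 501 and 461 in wild type, a difference of 0.068 ± 0.20 with overlapping groups. Its probe sets disagreed: a second one read 282 and 299.9 in Hox13dKO against 148 and 136 in wild type, with no overlap and a difference of 1.03 ± 0.29 (2.05-fold). The brightest Ltbp3 probe set carries a suffix by which the array's maker marks probes shared between transcripts. Its remaining 2 probe sets were too dim to be tested, between 2.96 and 50.6 units on all arrays. Ltbp4, needed for elastic fibres and a binder of latent TGF-beta 1, read 246 and 289 in Hox13dKO against 238 and 215 in wild type (0.24 ± 0.27), and its lower Hox13dKO array was only 0.046 log2 units above the higher wild-type array. Over the 4 fits that each left out 1 array, Ltbp1 ranged from -2.14 to -1.66, Ltbp3 from 0.0087 to 0.13 and Ltbp4 from 0.12 to 0.35.

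Of the ligands, Tgfb2, whose product depends on betaglycan for binding to TGFBR2, read 537 and 445 units in Hox13dKO against 302 and 248 in wild type. The groups did not overlap, and the difference was 0.84 ± 0.24 (SE). The other 3 Tgfb2 probe sets pointed the same way, also without overlap. They read 601 and 405 in Hox13dKO against 271 and 263 in wild type (0.89 ± 0.26), 452 and 350.3 against 123 and 296 (1.06 ± 0.41), and 164 and 192 against 133 and 132 (0.42 ± 0.33). Probe sets of 1 gene share the RNA of the same 4 samples and are no separate replicates. Without any single array the Tgfb2 difference lay between 0.70 and 0.98.

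Tgfb1, the ligand best known from immune and blood vessel cells, read 194 and 327 in Hox13dKO against 298 and 329 in wild type. The groups overlapped, with Hox13dKO replicate 1 the low array. Its difference of -0.31 ± 0.31 turned to 0.063 without that array. A second Tgfb1 probe set was too dim to be tested, at 7.36 and 24.1 in Hox13dKO, against 55.1 and 28.1 in wild type. Tgfb3, a ligand known for its role in the fusion of the palate, read 467 and 544 in Hox13dKO against 381 and 444 in wild type (0.29 ± 0.21). The groups just missed each other, the closest pairing differing by 0.074.

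Among the receptors Tgfbr3 had the highest difference. It read 1330.0 and 1023 units in Hox13dKO against 468 and 529.7 in wild type, and both Hox13dKO arrays were above both wild-type arrays. The difference was 1.23 ± 0.20 (SE), which ranked 12877 of 13071 genes from the lowest. A dimmer second probe set gave 134 and 157 in Hox13dKO against 32.1 and 118 in wild type (1.24 ± 0.63), the low value being that of wild type replicate 1. Without any single array the Tgfbr3 difference lay between 1.04 and 1.42.

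Tgfbr1, the type I receptor, read 5621 and 5048 in Hox13dKO against 7608 and 5135 in wild type, and the groups overlapped (-0.23 ± 0.19). Without wild type replicate 1, the high array, its difference was 0.053. The other 2 Tgfbr1 probe sets differed by 0.092 ± 0.33 and 0.54 ± 0.41, and both overlapped between groups. Tgfbr2, the type II receptor that binds ligand first, read 1726 and 1229.6 in Hox13dKO against 1207 and 1119 in wild type, a difference of 0.33 ± 0.19. Here the lower Hox13dKO array exceeded the higher wild-type array by 0.026 log2 units. A second Tgfbr2 probe set read 50.5 and 111 in Hox13dKO, inside the spread of the wild-type arrays at 16.6 and 160.04 (0.54 ± 1.01). The third, too dim to be tested, read 10.9 and 4.40 in Hox13dKO, against 21.5 and 32.0 in wild type.

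**Figure D2:**
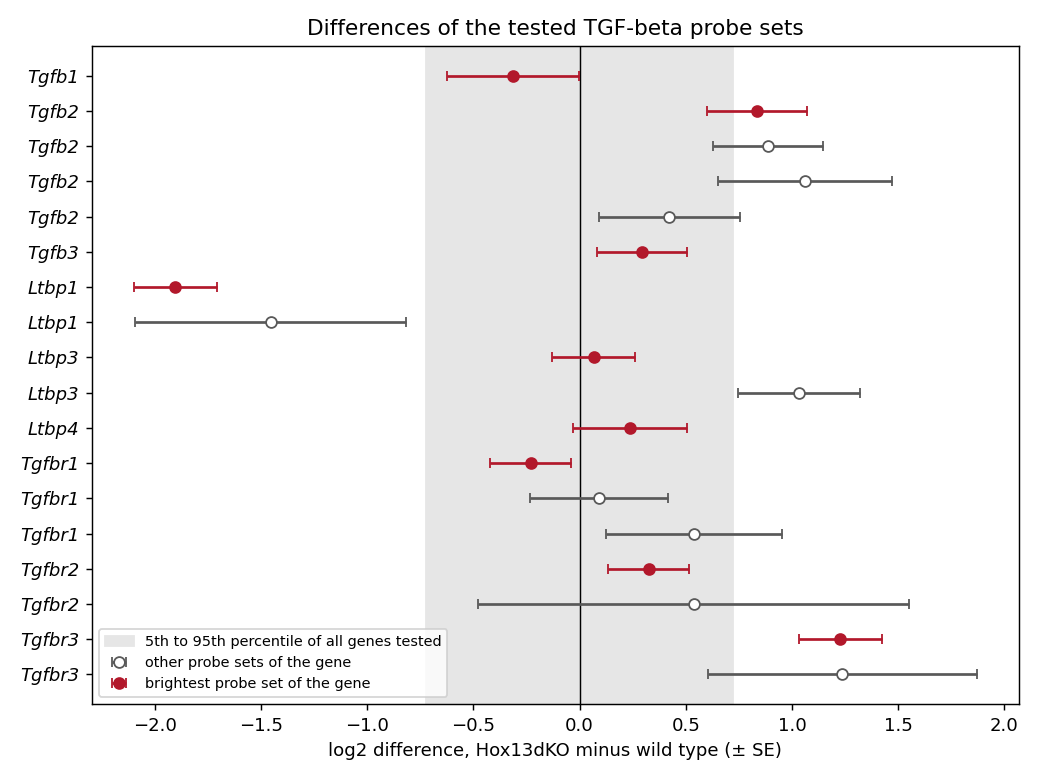
The log2 difference, Hox13dKO minus wild type, of the 18 tested probe sets with its standard error; filled points are the brightest probe set of each gene, and the grey band spans -0.72 to 0.72, the 5th to 95th percentiles over all genes tested. The Ltbp1 points lie left of the band, and those of Tgfbr3, most of Tgfb2 and the dimmer Ltbp3 point (1.03) lie right of it.

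Over the family as a whole, 6 of the 9 tested genes had positive differences, with a median of 0.24, beside a median of -0.027 over all 13071 genes tested, of which 5988 were positive. In limma, 1 of the 9 genes, Ltbp1, passed an adjusted p of 0.05, beside 40 of 13071 genes (0.306%) in either direction. By probe set 1 of 18 passed, beside 0.207% of 27022. Groups did not overlap for 6 of the 9 genes, beside 37.2% of all genes: Ltbp1, with both Hox13dKO arrays lower (20.1% of all genes), and Tgfb2, Tgfb3, Ltbp4, Tgfbr2 and Tgfbr3, with both higher (17.1% of all genes). Since this comparison was used to pick the family, nothing is read from these counts. Leaving out either Hox13dKO array ended the Ltbp1 call, at -1.99 without replicate 1 and -1.82 without replicate 2, and each of these fits assumes that the lone array varies like those of the other group.

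Hox13dKO replicates 1 and 2 were the lowest of the 4 arrays for 1 and 3 of the 18 member probe sets, and wild type replicates 1 and 2 for 7 each (38.9%). Over all probe sets tested these shares were 26.2% and 24.0% for the Hox13dKO arrays and 29.5% and 20.3% for the wild-type arrays. Among the 9 member probe sets that were not the brightest of their gene, wild type replicate 1 was lowest for 5. That array had the low actin ratio, and the part of RNA quality in these values was not tested.

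The 5 non-member genes whose profile over the 4 arrays was most like that of Ltbp1 were found by the root mean square difference of log2 signals, each centred on its own mean. They were Dgkk, a diacylglycerol kinase gene (0.11 log2 units from Ltbp1), Jag1, a Notch ligand gene (0.16), Chrna7, a subunit of nicotinic acetylcholine receptors (0.18), Grhl1, a grainyhead-family transcription factor gene of epithelia (0.19), and Tfap2b, of the AP-2 family (0.20). Dgkk had 168 and 126 units in Hox13dKO against 616 and 406 in wild type, and Jag1 had 1223 and 1453 against 5508 and 4332. With 4 arrays in 2 groups, any gene with a fall of similar size comes close to this profile. Among the members the nearest to Ltbp1 was Tgfbr1, at 0.84, and the farthest Tgfbr3, at 1.58.

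**Figure D3:**
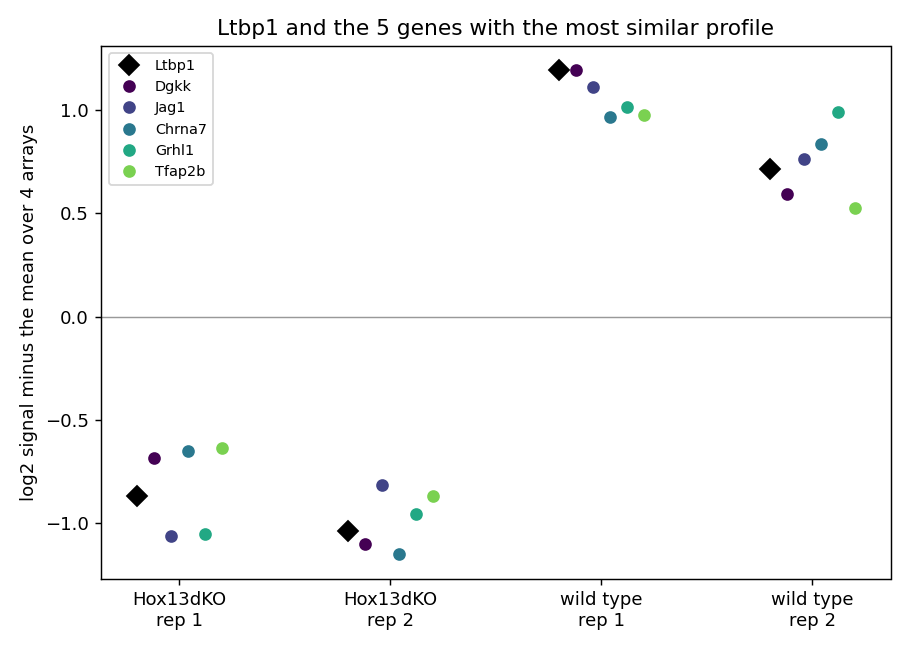
Signal on the log2 scale minus each gene's mean over the 4 arrays, for Ltbp1 (black diamonds) and the 5 genes nearest to it. All 6 genes lie below 0 on the Hox13dKO arrays and above 0 on the wild-type arrays, Ltbp1 at -0.87 and -1.04 in Hox13dKO and at 1.19 and 0.71 in wild type.

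Other genes of the pathway were followed in 7 lists with 87 entries, of which 82 had a probe set that named them alone and 78 were bright enough to be tested. The remaining 5 were not analysed here. In limma 1 of the 78 passed an adjusted p of 0.05 as lower in Hox13dKO and 0 as higher, beside 0.145% lower and 0.161% higher over all genes. At an unadjusted p under 0.05 there were 14 of 78 (12 higher, 2 lower), beside 7.25% of all genes in either direction. The lists were chosen with earlier results of these data known, so these counts are given as descriptions. The median over the 78 was 0.059, beside -0.027 over all genes. Log2 differences are again Hox13dKO minus wild type ± SE by the brightest probe set.

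The gene that passed was Thsd4, in the list of proteins that scaffold the latent complex. Thsd4, also known as ADAMTSL6, promotes the assembly of fibrillin-1 microfibrils, the fibres on which LTBPs are deposited. It read 183 and 217 units in Hox13dKO against 795 and 873 in wild type, without overlap, and fell by 2.06 on the log2 scale (SE 0.22, limma adjusted p = 0.0171). It no longer passed without either of the Hox13dKO arrays. Of the 14 scaffold genes tested, 6 had positive differences, and the median was -0.093. None of the 14 passed the threshold as higher, and 3 had an unadjusted p under 0.05 in limma (2 higher, 1 lower). Fbln2, a fibulin, read 1225 and 1351 in Hox13dKO against 743 and 778 in wild type (0.76 ± 0.16 SE, limma adjusted p = 0.191). Efemp1, another fibulin, differed by 0.95 ± 0.39 and Tgm2, a transglutaminase that cross-links latent complexes to the matrix, by 0.80 ± 0.40, neither past the threshold. Other Tgm2 probe sets differed in both directions. Fn1, the fibronectin gene, was named after its values were seen, and its probe sets disagreed: the brightest differed by 0.012 ± 0.18 and the other by 1.07.

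Genes for processing and release of the latent ligand had 0 of 13 past the threshold in limma and 1 at an unadjusted p under 0.05, with a median of 0.18. That gene was Itgb5, an integrin subunit that pairs with the alpha v subunit to bind the latent complex (0.49 ± 0.14; limma adjusted p = 0.406). Itgav, the alpha v subunit itself, differed by 0.30 ± 0.19, Furin, the protease that cuts the propeptide, by 0.23 ± 0.19, and Thbs2, a thrombospondin, by -1.56 ± 0.79 at dim signals.

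Co-receptors, decoys and ligand traps had 0 of 8 past and 2 at an unadjusted p under 0.05 (median 0.17). Bgn, the proteoglycan biglycan, which can bind TGF-beta in the matrix, read 1382 and 1468 in Hox13dKO against 638 and 716 in wild type (1.08 ± 0.16; limma adjusted p = 0.0625). The groups did not overlap, and Bgn did not pass the threshold. Acvrl1, a type I receptor of endothelial cells, read 86.1 and 111 in Hox13dKO against 34.7 and 45.6 in wild type (1.30 ± 0.55; limma adjusted p = 0.782). Beside it, 8 of 8 endothelial markers had positive differences and 0 passed, led by the cadherin gene Cdh5 (0.77 ± 0.22) and the receptor gene Kdr (0.75 ± 0.26). Their part in the Acvrl1 value was not tested. Bambi, a decoy receptor, differed by -0.27 ± 0.14 and Cd109, a co-receptor that dampens signalling, by -0.44 ± 0.35.

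By brightest probe set the transducers spanned the narrowest range of the 7 lists. Of 8 genes tested 0 passed in limma and 0 had an unadjusted p under 0.05, and their log2 differences ran from -0.32 to 0.055 with a median of -0.030. The list's lowest p-values belonged to Tab1, an adaptor of the kinase TAK1 (-0.20 ± 0.18), Zfyve9, which brings SMADs to the receptor (-0.11 ± 0.21), Foxh1, a DNA-binding partner of SMADs (-0.32 ± 0.68), and Smad2 (-0.065 ± 0.16). The other SMAD genes of this branch, named after their values were seen, were Smad3 (0.055 ± 0.15) and the shared partner Smad4 (0.0046 ± 0.14). Other tested probe sets differed by -0.5 for Smad2, by 0.35 and 0.19 for Smad3, and by 0.09 and 0.07 for Smad4. Smad4 read 6462 and 5597 in Hox13dKO against 6429 and 5589 in wild type, with overlapping groups.

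Inhibitors inside the cell had 0 of 11 past and 2 at an unadjusted p under 0.05 (median 0.014). Dab2, an endocytic adaptor that acts on TGF-beta receptors, read 1143 and 1091 in Hox13dKO against 595 and 405 in wild type (1.19 ± 0.22; limma adjusted p = 0.119). Smurf1, a ubiquitin ligase that targets SMADs and receptors, differed by 0.57 ± 0.21. Smad7 and Pmepa1, feedback inhibitors that TGF-beta itself induces, had lower signals in Hox13dKO, at 552 and 428 against 756 and 579 (-0.44 ± 0.23) and at 211 and 148 against 238 and 261 (-0.49 ± 0.31). Neither passed the threshold.

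Response genes had the highest median of the 7 lists, 0.37, with 12 of 15 differences positive. In limma 0 of 15 passed, and 5 had an unadjusted p under 0.05, all with higher signals in Hox13dKO. Col1a1, the alpha-1 chain of collagen I, read 1722 and 1333 in Hox13dKO against 666 and 689 in wild type (1.16 ± 0.18; limma adjusted p = 0.0717). Tgfbi, a matrix protein named for its induction by TGF-beta, differed by 0.60 ± 0.18 (limma adjusted p = 0.499) and Snai1, a repressor of epithelial genes, by 0.68 ± 0.21. Acta2, smooth muscle actin, read 798 and 2009 in Hox13dKO against 604 and 522 in wild type (1.17 ± 0.37). Its high array, Hox13dKO replicate 2, was also the highest for the summed muscle markers, at 3714 units, and the part of muscle in it was not tested. The fifth was Tsc22d1, a leucine zipper gene (0.37 ± 0.13). Over the 78 genes of the 7 lists, both Hox13dKO arrays were higher for 22 and lower for 12. Among the 15 response genes they were higher for 8, beside 17.1% of all genes, and lower for 2, beside 20.1% of all genes. Those 2 were Klf10, a fast TGF-beta response gene (-0.35 ± 0.24), and Tagln, an actin-binding protein (-0.51 ± 0.47). Tsc22d1, Klf10 and Tagln were named after their values were seen. These genes answer to other signals too, and no signalling was measured.

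The activin branch, whose ligands use the same SMADs through other receptors, had 0 of 9 past in limma and 1 at an unadjusted p under 0.05, with a median of -0.046. That was Acvr2a, a type II receptor (-0.37 ± 0.15; limma adjusted p = 0.757). Fst, the activin antagonist follistatin, differed by 0.96 ± 0.46, Fstl1, a follistatin-like secreted protein, by 0.17 ± 0.12, and Inhbb, a subunit of activin B, by -1.20 ± 0.97 at dim signals, with a second probe set in the opposite direction. None of these 4 passed the threshold.

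**Figure D4:**
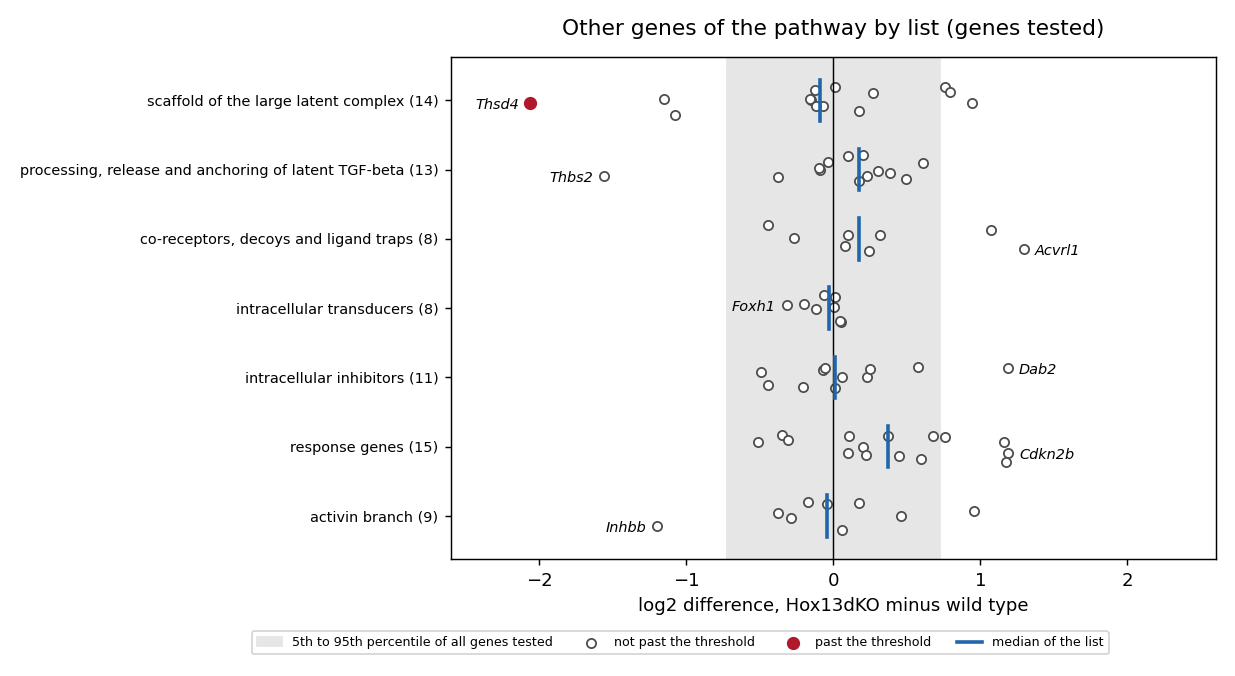
The log2 difference, Hox13dKO minus wild type, of each tested gene of the 7 lists by its brightest probe set, with list sizes in brackets; blue bars are list medians, names mark the gene farthest from 0 in each list, and the grey band is the 5th to 95th percentile over all genes tested. The filled point is Thsd4 at -2.06, and the transducers all lie within the band.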

How the data were processed

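RNA of 4 samples (2 Hox13dKO, 2 wild type) was hybridised to 4 Affymetrix arrays, 1 per sample. The authors deposited a linear signal intensity per probe set, made with MAS5 per the submitters' processing notes; MAS5 subtracts background and scales each array. The version and the detection calls are not given in the sources used here. No read depth exists, and the 2 arrays per group limit the precision. Signals were raised to the 20th percentile of all values (14.1 units) and log2 was taken. The 64 control probe sets were left out, and probe sets with a mean log2 signal at or above the 40th percentile (39.6 units) were tested, 27022 in all. The test was limma's (version 3.58.1, R 4.3.3) for Hox13dKO minus wild type (lmFit, eBayes with intensity trend, two-sided, Benjamini-Hochberg over all probe sets tested, threshold 0.05, 2 residual and 6.05 prior degrees of freedom).

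Of the probe sets, 34958 had 1 gene symbol, 932 several and 9211 none. All 24 member probe sets were matched by gene ID to RefSeq (GRCm38.p6). A gene's brightest probe set stands for it. Named were all members, in each pathway list the genes past the threshold and those of lowest p up to 4, the 5 genes nearest to Ltbp1, the targeted genes, and of each marker list the 2 of lowest p; exceptions are stated. The members and lists were chosen with earlier results of these data known. The fit was tested on simulated arrays. The settings varied were median centring, quantile normalization, a pseudocount of 16, no floor, no filter, a filter at the 60th percentile and no trend. Further settings were a replicate block, no probe sets with the suffix x, s or a, and each array left out. Figures were drawn with matplotlib 3.10.9.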

Additional observations from a re-analysis of the deposited data

How the results depend on the processing

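Ltbp1 kept its sign in all 13 alternatives, but most of these could not have changed it. The filter, the trend and the replicate block cannot move its difference, which stayed at -1.90 there and with no floor. Its groups did not overlap, so leaving out 1 array could not turn the sign. Ltbp1 was no longer past the threshold with no filter on dim probe sets and with eBayes without trend. Its difference ran from -2.14 to -1.66 over the fits without 1 array. The 56 probe sets past the threshold became 213 after median centring, 0 with no filter (3159 at an unadjusted p under 0.05 in limma), 1 without trend, 418 with the replicate block, and 11 to 525 without 1 array. The 1 pathway gene past the threshold became 0 with no filter and 0 without trend (12 and 9 at an unadjusted p under 0.05), 6 with the replicate block (Bgn, Col1a1, Dab2, Fbln2, Thsd4 and Tsc22d1), and 0 to 5 without 1 array. Without 1 array Tgfb1 ran from -0.69 to 0.063 and Tgfbr1 from -0.51 to 0.053, changing sign without Hox13dKO replicate 1 (Tgfb1) and without wild type replicate 1 (Tgfbr1). The cause of these changes was not tested. Deviations from the group means correlated with r = 0.198 between arrays of the same replicate number. With 2 numbers this does not establish pairing. Under the replicate block Ltbp1 stayed at -1.90, and Tgfbr3, at 1.23, passed. Tgfbr3 did not pass in the main fit, with no filter or without trend. Without 1 array its difference ran from 1.04 to 1.42. When probe sets with the suffix x, s or a were left out, Tgfb2 and Ltbp4 (suffix a) and Ltbp3 (suffix s) had no value by their brightest probe set. Dim probe sets, among them Ltbp2, cannot be set against background without detection calls.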

Other observations

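Macrophage markers were led by the complement gene C1qa (2.02 ± 0.79; log2 difference, Hox13dKO minus wild type, ± SE) and the lysosomal gene Cd68 (0.33 ± 0.56). C1qa read 71.5 and 11.8 in wild type, the latter under the floor. Of the 5 macrophage markers tested 3 had positive differences, and the median was 0.035. Erythroid markers were led by the haem synthesis gene Alas2 (1.13 ± 0.32) and the membrane protein gene Epb42 (0.79 ± 0.35). Ectoderm markers were led by the ridge signal Fgf8 (0.83 ± 0.22) and the keratin gene Krt8 (-0.61 ± 0.21, with probe sets in both directions). Nerve markers were led by the tubulin gene Tubb3 (-1.29 ± 0.37) and the RNA-binding protein gene Elavl3 (-0.54 ± 0.94). Elavl3 overlapped between groups, at 2.20 (under the floor) and 89.6 in Hox13dKO against 47.5 and 55.9 in wild type. Of the 3 nerve markers tested 1 had a positive difference, Sox10 (0.18 ± 0.52), named after its values were seen. In limma 0 genes of these 4 lists passed the threshold, and by list 1 macrophage, 1 erythroid, 2 ectoderm and 1 nerve marker had an unadjusted p under 0.05.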
